A study of Mus musculus with 4 samples.

Results

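The oligoadenylate synthetase family consisted of the 6 genes Oas1a, Oas1g, Oas2, Oas3, Oasl1 and Oasl2, taken by symbol from the 32285 genes of the count matrices. They were measured by single-cell RNA sequencing (scRNA-seq) of bone marrow (BM) cells from 5TMM mice, a transplant model of multiple myeloma. In this model, luciferase-carrying 5TGM1 myeloma cells were injected into a vein of 6-week-old C57BL/KawRij mice, and treatment followed 3 weeks later. Vehicle was given to 2 mice, and the other 2 received Purinostat Mesylate (PM), an inhibitor of class I and IIb histone deacetylases, at 10 mg/kg. Marrow of all 4 was collected after 24 h, red cells were lysed, and each mouse gave 1 library, so that n = 2 mice per group. All 4 mice carried the myeloma graft, and the other marrow cells were the host's own, so no value below refers to marrow without myeloma.

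Oligoadenylate synthetases bind double-stranded RNA in the cytosol and then make short chains of linked adenylates, which act as a second messenger in antiviral defence. Transcription of the family rises after interferon reaches the cell and signals through its receptor, and in marrow the family is commonly read as a sign of interferon exposure. Oas1a and Oas1g encode small synthetases of a single unit, whereas Oas2 and Oas3 are built from repeated units. Oasl2 is an active synthetase with ubiquitin-like domains. Oasl1 shares these domains but lacks enzyme activity, and it is known to restrain translation of Irf7, the transcription factor that amplifies interferon production.

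The 4 libraries held 8242 to 13848 cell barcodes and 69828595 to 109447030 molecules (unique molecular identifiers, UMIs), with a median of 4717 to 6067 UMIs per kept cell. Keeping cells of 300 genes or more and no more than 20% mitochondrial UMIs left 39743 cells in 30 clusters. Clusters were named by markers, and a name such as B or neutrophils stands below for cells that resemble that type. Of the barcodes, 166 occurred in more than 1 library. Sums were made for 14 types that every mouse held in 10 cells or more, including a cluster led by Il1b and Ptgs2 and another led by Mpo and Ctsg, which stayed unnamed. Neutrophils made up 52.6% to 69.3% of the cells of a mouse. Libraries of the same group differed: vehicle 1 lay above vehicle 2 in 60 of the 84 pairs of a member and a type.

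All 6 members lie on mouse chromosome 5 (GRCm38, GENCODE annotation) and are annotated as protein coding. Oasl2 spans 5:114896936-114912234 on the plus strand, and Oasl1 follows at 5:114923240-114937915 after a gap of 11005 bp. The second locus, 10 Oas genes over 191 kb, begins with Oas2 (5:120730333-120749853, minus strand) and Oas3 (5:120753098-120777661, minus strand), 3244 bp apart. At its far side lie Oas1g (5:120876142-120887613) and Oas1a (5:120896256-120907521), both on the minus strand and 8642 bp apart. Oas1a and Oas1g are near copies. Of the windows of 91 bases in the last 500 bases of their transcripts, 42.2% of those of Oas1a also occurred in Oas1g and 26.6% of those of Oas1g in Oas1a, whereas the other 4 members shared none. Reads from these shared windows fit both genes. How the authors' counting treated such reads was not checked, so the values of Oas1a and Oas1g are uncertain.

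The stretch of 100 bases just before the annotated start is shown for the 5 members with an entry in the RefSeq promoter table (GRCm38.p6), because interferon response factors are known to bind repeats of GAAA. Capitals mark pairs of GAAA with any 2 bases between them, searched on both strands of 300 bases around the start.
Oas1a (5:120907526-120907625, minus strand): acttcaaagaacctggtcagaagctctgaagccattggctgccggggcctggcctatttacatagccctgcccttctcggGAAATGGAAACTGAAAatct
Oas1g (5:120887614-120887713, minus strand): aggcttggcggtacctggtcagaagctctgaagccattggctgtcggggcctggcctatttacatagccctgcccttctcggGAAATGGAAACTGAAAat
Oas3 (5:120777660-120777759, minus strand): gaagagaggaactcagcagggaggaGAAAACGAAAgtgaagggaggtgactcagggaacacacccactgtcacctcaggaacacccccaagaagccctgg
Oasl2 (5:114896834-114896933, plus strand): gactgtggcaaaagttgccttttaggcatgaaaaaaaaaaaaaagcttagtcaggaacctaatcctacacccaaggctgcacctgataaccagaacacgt
Oasl1 (5:114923140-114923239, plus strand): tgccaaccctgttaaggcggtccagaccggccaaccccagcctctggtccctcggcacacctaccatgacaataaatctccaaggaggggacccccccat

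The windows of Oas1a and Oas1g each held 2 overlapping matches in a row, the first beginning 20 bases before the start in Oas1a and 18 bases before it in Oas1g. Oas3 held 1 match, whose first base was 75 bases before the start. No match was found in the windows of Oasl1 and Oasl2. Of 32851 promoters of the same length, 3.44% held such a pair, and 0.116% held the run of 3 spaced GAAA seen in Oas1a and Oas1g. These matches describe letters, not bound sites.

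Family transcripts were widespread in the marrow. The 6 genes together gave 54663 UMIs, and 20387 cells (51.3%) held at least 1. Oas3 (19278 UMIs) and Oasl2 (18262) gave most of them, then Oas2 (9714), Oas1a (3549), Oasl1 (3039) and Oas1g (821); these totals are of 3′ tags and are not divided by transcript length. By mouse, the share of cells with a family UMI was 56.3% and 35.7% under vehicle and 54.6% and 54.8% under PM, with depth not equalised. Neutrophils supplied most family UMIs in every mouse, with 75.8% and 62.3% under vehicle and 61.4% and 72.7% under PM. Mono&prog cells (monocytes and their progenitors) came next with 9.66% to 18.5%.

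The summed level of the family, in CPM (UMIs of the type in a mouse, scaled to a common total), differed strongly between types. The Il1b/Ptgs2 cluster was far above all others, at 1239 and 637 CPM under vehicle and 1907 and 1652 CPM under PM. This cluster also carried neutrophil transcripts, at 105 to 145 per mille of its UMIs against 301 to 335 per mille in neutrophils. In the vehicle mice, CAR cells (reticular stromal cells that make Cxcl12) followed with 223 and 127 CPM. Their largest counts were 12 and 4 UMIs of Oas3 and 10 and 7 UMIs of Oasl2. Neutrophil transcripts made up 176 and 144 per mille of the UMIs of CAR cells under vehicle and 243 and 227 per mille under PM, and their part in this level was not tested. Next came neutrophils with 216 and 111 CPM, macrophages with 105 and 124 CPM and mono&prog cells with 131 and 84.5 CPM. Each neighbouring pair in this order overlapped, so the order was not resolved. HSPC (stem and early progenitor cells), T cells (with NK cells), DC (dendritic cells) and erythroid cells lay lower, between 32.6 and 67.0 CPM, and also overlapped with each other. B cells had 34.9 and 27.7 CPM. The vehicle mice were far apart in eosinophil and basophil progenitors (54.4 and 10.9 CPM) and in megakaryocytes with platelets (55.2 and 2.20 CPM). Counts were low: in megakaryocytes with platelets (14 and 27 cells) no member had more than 3 UMIs in a vehicle mouse. In the progenitors the largest count was 16 UMIs in vehicle 1 (Oas3) and 3 in vehicle 2 (Oas2). The Mpo/Ctsg cluster had 18.4 and 9 CPM, and plasma cells had 9.83 and 3.44 CPM under vehicle and 21.8 and 8.40 CPM under PM. These low values overlapped too, so the lowest type was not resolved under vehicle.

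**Figure D1:**
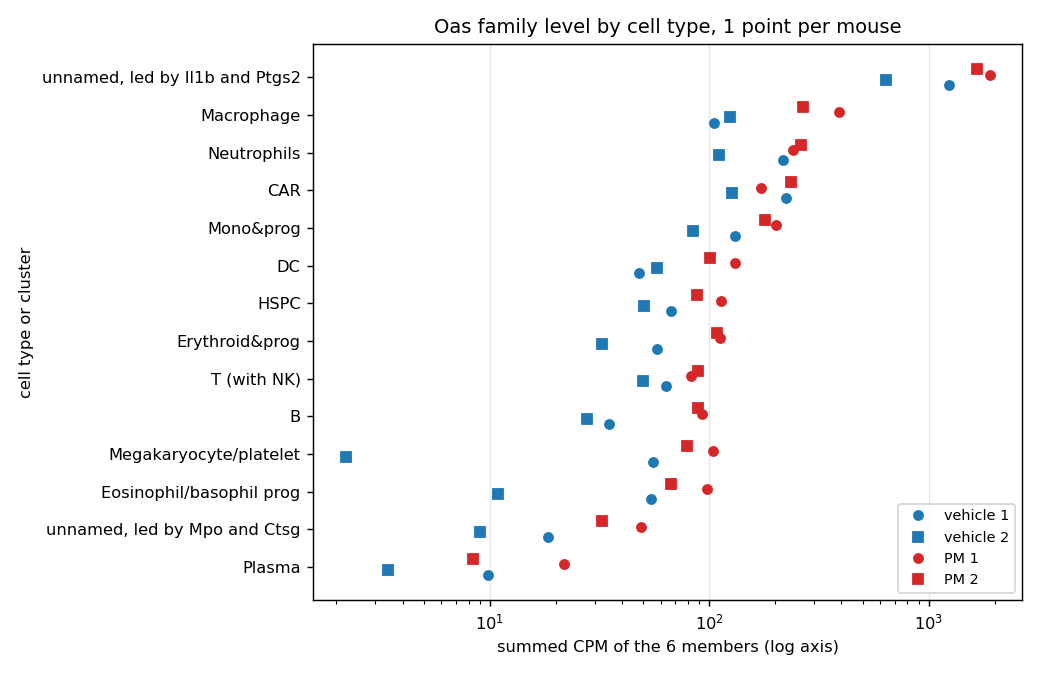
Summed CPM of the 6 members (x, log axis) in each cell type or cluster (y), with 1 point per mouse; blue points are vehicle and red points PM, circles are mouse 1 and squares mouse 2. The Il1b/Ptgs2 cluster is highest at 637 to 1907 CPM, and plasma cells lie low at 3.44 to 21.8 CPM. The lowest single point is vehicle 2 in megakaryocytes with platelets (2.20 CPM, from 1 UMI). In B cells both PM points (92.4 and 89.1) lie right of both vehicle points (34.9 and 27.7).

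Plasma cells, the type to which myeloma cells belong, carried few family transcripts. Graft and host plasma cells were not told apart by a label. The plasma cell cluster led by Mt2 and Ighg2b, in which all 171 cells had Ighg2b as their leading immunoglobulin gene, gave 57 family UMIs of 6320812. The other plasma cell cluster, led by Igha and Jchain, gave 86 of 4488886 in 274 cells. None of the 6 members passed the filter on low counts in plasma cells, so an effect of PM on the family in plasma cells was not detectable at this depth.

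Members followed each other across types to different degrees. Over the 56 sums of a type and a mouse, Pearson's r of log2(CPM + 1) between members ran from 0.05 (Oas1g with Oasl1) to 0.91 (Oas2 with Oasl2). This is a description, since the sums share mice and depth. Oas1g passed the filter on low counts in 3 types only, and the part of its low counts in its r was not tested. Without Oas1g the lowest r was 0.51 (Oas1a with Oasl1). Among 10645 genes averaging 5 CPM or more, the closest to Oas3 was Rtp4 (r = 0.93), followed by Ddx60 (0.88) and 9830107B12Rik (0.86). Rtp4 and Ddx60 are interferon-induced antiviral genes. Rtp4 was also the closest to Oas2 (0.88), with B430306N03Rik (0.87) and Gm34589 (0.86) next. Oasl2 was closest to Cd33 (0.87), followed by Rtp4 (0.87) and Csf3r (0.86). Cd33 and Csf3r are myeloid surface genes. Oasl1 was closest to Isg15 (0.75), Rtp4 (0.73) and Adar (0.72). Oas1a was closest to Cmpk2 (0.72), Snx10 (0.72) and Dstyk (0.71), and Oas1g less closely to Fabp5, Gm21188 and Pla2g15 (0.60 each).

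In neutrophils, transcripts of different members often met in the same cells. After each cell was thinned to 2000 UMIs, 50.8% of the vehicle neutrophils with an Oasl2 UMI also held a UMI of another member, against 22% of those without. Under PM the shares came to 50.6% and 27.2%. Neutrophil classes differed in family level as described further on, and the part of this in the shares was not tested. In mono&prog cells the shares with and without an Oasl2 UMI were 38.9% and 15.7% under vehicle and 45.5% and 21.9% under PM. The pattern was not seen in every mouse: in PM 1 the shares were 11.9% and 12.1% in B cells and 15.4% and 16.5% in erythroid cells. In PM 2 they were 41.4% and 10.9% in B cells and 28.6% and 16.0% in erythroid cells. Over both PM mice only 71 B cells and 27 erythroid cells held an Oasl2 UMI, so this difference between mice was not resolved.

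The comparison of PM with vehicle was made on UMIs summed per mouse and type, by edgeR's quasi-likelihood test with Benjamini-Hochberg adjustment over all genes of the type. A gene was called at an adjusted p under 0.05 and an absolute log2 fold change over 0.5. Fold changes were fitted with a further scaling of the totals (TMM), whereas CPM and statements of overlap use the totals alone. The 2 scales can differ: in neutrophils the log2 fold change of Oasl1 was 1.16 with TMM and 1.32 with the totals alone. Of the 84 pairs of a member and a type, the mean level was higher in the PM mice in 75 and lower in 9. Both PM mice lay above both vehicle mice in 59 pairs and below both in 1. Among the tested pairs this held for 47, against 25.6% of all genes tested. Enough UMIs for a test were present in 56 pairs in 12 types, and the 28 pairs not tested had 1 to 45 UMIs. Of the 56, 5 were called higher with PM, 3 of them in B cells, and none lower. Over all genes and types, 0.926% of the tested pairs were called higher and 0.42% lower. The fitted log2 fold change was above 0 in 55 of the 56, where 50.1% of all tested pairs were. At an unadjusted p under 0.05, 44 pairs were higher, where 7.02% of all tested pairs were, and none was lower. All pairs come from the same mice, so these counts are not counts of independent results. DESeq2 called 6 pairs higher and none lower. The count of 5 depended on single mice. It was higher without vehicle 1, vehicle 2 or PM 2 and lower without PM 1, and it was 21 with the replicate block. The shares of all genes called in these refits are not given here. With 2 mice per group an exact permutation test of a single value cannot give a two-sided p below 0.333, so it was not used.

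**Figure D2:**
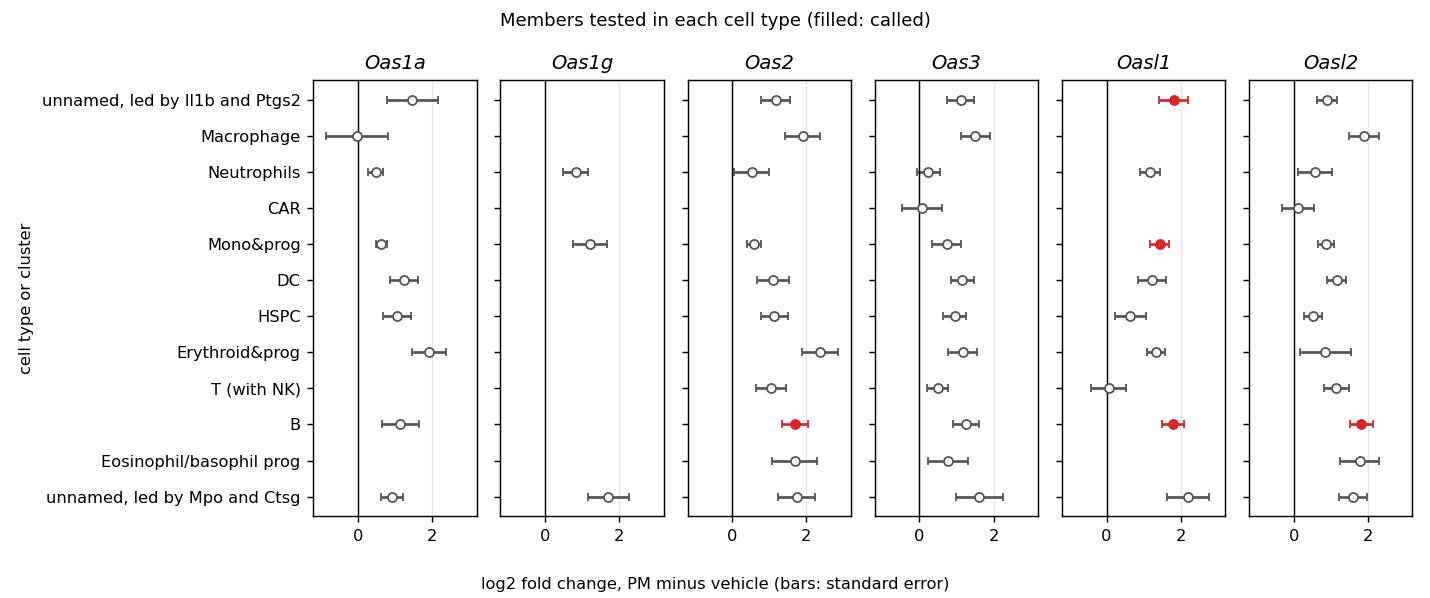
Log2 fold change of PM over vehicle (x) for each tested pair of member (panel) and cell type or cluster (y); bars are standard errors, and filled red points are called by edgeR's quasi-likelihood test. The filled points are Oas2, Oasl1 and Oasl2 in B cells and Oasl1 in mono&prog cells and the Il1b/Ptgs2 cluster; the one fitted value below 0 is Oas1a in macrophages (-0.03).

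Oas1a and Oas1g, the small synthetases, were called in none of the types. In mono&prog cells Oas1a had 17.5 and 13.9 CPM under vehicle and 24.7 and 25.2 CPM under PM. Both PM mice were above both vehicle mice there, with a log2 fold change of 0.63 ± 0.15 (SE) and an edgeR adjusted p of 0.0679. In erythroid cells Oas1a had 1.04 and 3.95 CPM with vehicle and 13.8 and 9.60 CPM with PM, a log2 fold change of 1.91 ± 0.47 (edgeR adjusted p = 0.193, where 0.0855% of genes were called higher). Neutrophil transcripts also differed without overlap in erythroid sums, at 28.9 and 10 per mille of UMIs with vehicle and 35.2 and 29.3 per mille with PM, and their part in the erythroid values of this and the other members was not tested. In macrophages the groups overlapped, with 8.11 and 34.2 CPM under vehicle and 33.3 and 5.66 CPM under PM. Oas1g passed the filter in 3 types only. Its largest total was in neutrophils, at 2.59 and 1.14 CPM with vehicle and 3.62 and 3.98 CPM with PM (log2 fold change 0.82 ± 0.34, edgeR adjusted p = 0.191).

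Oas2 rose in B cells. It had 8.37 and 4.96 CPM in the vehicle mice and 18.4 CPM in both PM mice, so the groups were well apart. The log2 fold change was 1.70 ± 0.35 (edgeR adjusted p = 0.00962), in a type where 2.17% of genes were called higher. Different clusters held the B cells of the groups, since the cluster led by Ebf1, Vpreb3 and Rag1 held 51 of 241 and 355 of 985 B cells under vehicle but 65 of 1457 and 57 of 742 under PM. Within the class of mature B cells alone, described further on, Oas2 had 11.2 and 6.01 CPM with vehicle and 18.8 and 25.0 CPM with PM and was not called (1.46 ± 0.55, edgeR adjusted p = 0.194). In erythroid cells Oas2 had 2.59 and 1.18 CPM with vehicle and 7.57 and 10.4 CPM with PM. This was its largest tested change, 2.36 ± 0.49, but the edgeR adjusted p was 0.145. In neutrophils the 42.3 and 19.9 CPM of the vehicle mice overlapped with the 42.2 and 58.8 CPM of the PM mice.

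Oas3, the most abundant member by UMIs, was called in none of the 12 types in which it was tested. In neutrophils it had 89.9 and 50.2 CPM with vehicle and 92.0 and 93.5 CPM with PM. In CPM the groups did not overlap, but vehicle 1 lay just under the PM mice and vehicle 2 was low. The fitted log2 fold change, with TMM scaling, was 0.24 ± 0.30. Without vehicle 2 it was -0.13, so on the fitted scale the PM mice together did not lie above vehicle 1. B cells had 6.98 and 5.54 CPM with vehicle and 14.8 and 12.9 CPM with PM, which just missed the threshold (1.26 ± 0.36, edgeR adjusted p = 0.0565). In macrophages Oas3 had 32.4 and 34.2 CPM with vehicle and 104 and 73.6 CPM with PM (1.51 ± 0.38, edgeR adjusted p = 0.305). No gene was called higher in macrophages (0%). Neutrophil transcripts were at 85.6 and 171 per mille of macrophage UMIs under vehicle and 187 and 175 per mille under PM, and their part in these values was not tested.

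Oasl2, the active synthetase with ubiquitin-like domains, rose in B cells as well. The vehicle mice had 8.37 and 6.13 CPM and the PM mice 23.6 and 23.2 CPM, a 3.54-fold difference (log2 1.83 ± 0.31, edgeR adjusted p = 0.0028). The gene was also higher in both PM mice in macrophages, with 29.7 and 38.4 CPM against 151 and 90.6 CPM (1.91 ± 0.40, edgeR adjusted p = 0.131). DC had 16.8 and 28.1 CPM with vehicle and 56.5 and 44.9 CPM with PM (1.15 ± 0.26, edgeR adjusted p = 0.130). In the Il1b/Ptgs2 cluster its level was far higher, at 769 and 428 CPM with vehicle and 1129 and 945 CPM with PM, but the relative difference was smaller (0.91 ± 0.27, edgeR adjusted p = 0.104). Neutrophils had 66.9 and 30.3 CPM with vehicle and 78.6 and 83.8 CPM with PM (0.57 ± 0.47, edgeR adjusted p = 0.527).

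Oasl1, the member without enzyme activity, was called in the most types. In B cells it had 6.98 and 8.46 CPM with vehicle and 29.7 and 26.1 CPM with PM, so that it rose 3.46-fold (log2 1.79 ± 0.29, edgeR adjusted p = 0.00172). In mono&prog cells the values were 4.40 and 3.34 CPM with vehicle and 12.1 and 9.09 CPM with PM. The log2 fold change was 1.44 ± 0.25 (edgeR adjusted p = 0.0214), and 1.26% of genes were called higher in this type. In the Il1b/Ptgs2 cluster Oasl1 stood at 73.7 and 30 CPM with vehicle and at 185 and 141 CPM with PM. It rose by 1.81 ± 0.39 on the log2 scale there (edgeR adjusted p = 0.0418), where 1.29% of genes were called higher. In neutrophils and erythroid cells both PM mice were well above both vehicle mice without a call. Neutrophils had 5.81 and 3.16 CPM against 11.5 and 11.3 CPM (1.16 ± 0.27, edgeR adjusted p = 0.0658). DESeq2 called Oasl1 there (adjusted p = 0.00158). By edgeR, 0 of the 6 members were called in neutrophils, where 4.45% of genes were called higher. Single vehicle mice moved these values in opposite directions. Without vehicle 1, the log2 fold change in neutrophils was 1.72 for Oasl1, 1.29 for Oasl2, 1.20 for Oas2 and 1.60 for Oas1g. Without vehicle 2, it was 0.79 for Oasl1 and -0.13 for Oas3. Erythroid cells had 8.29 and 11.3 CPM against 29.0 and 24.7 CPM (1.33 ± 0.25, edgeR adjusted p = 0.111). T cells (with NK cells) showed no separation of Oasl1, with 7.46 and 6.68 CPM against 5.70 and 9.20 CPM (0.06 ± 0.47), where 0.203% of genes were called higher. In the other 3 of the 4 members tested there, both PM mice lay above both vehicle mice in CPM, without a call. Over all types this held for 25.6% of the tested pairs, and the share in T cells alone is not given here. Oasl2 had 8.39 and 10.9 CPM against 21.9 and 20.2 CPM (1.14 ± 0.33, edgeR adjusted p = 0.148). Oas2 had 5.59 and 8.35 CPM against 12.6 and 16.7 CPM (1.05 ± 0.40, edgeR adjusted p = 0.286). Oas3 had 36.4 and 18.4 CPM against 37.8 and 36.8 CPM (0.49 ± 0.27), so vehicle 1 lay just under the PM mice. In T cells without NK cells, described further on, Oas3 overlapped.

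Each of the 5 calls was lost on leaving out at least 1 mouse. Without vehicle 2, which gave 985 B cells against 241 from vehicle 1, none of the B-cell calls remained: the edgeR adjusted p was 0.174 for Oasl2, 0.057 for Oasl1 and 0.376 for Oas2, at log2 fold changes of 1.5, 2.02 and 1.15. DESeq2 also left Oas2 uncalled in B cells (adjusted p = 0.18). In vehicle 1 the sums of B cells held few UMIs, 6 of Oasl2, 5 of Oasl1 and 6 of Oas2. Those of vehicle 2 held 21, 29 and 17. In mono&prog cells Oasl2 had 44.0 and 31.6 CPM with vehicle and 78.8 and 61.5 CPM with PM (0.87 ± 0.21). It was not called by edgeR (adjusted p = 0.118) but was called by DESeq2 (adjusted p = 0.0102). Oas2 (0.60 ± 0.19), Oas3 (0.74 ± 0.39) and Oas1g (1.21 ± 0.46) were not called there. Without vehicle 1, mono&prog cells had log2 fold changes of 1.13 (Oasl2), 0.94 (Oas2), 1.31 (Oas3), 2.34 (Oas1g) and 0.81 (Oas1a). Without vehicle 2, Oasl2 was at 0.65. The call of Oasl1 in these cells was lost without PM 1, at a log2 fold change of 1.15. In the Il1b/Ptgs2 cluster it was lost without PM 1 (0.32), without PM 2 (0.271) and when all variable genes were used for clustering (0.175), each an edgeR adjusted p. B-cell sums also contained neutrophil transcripts, at 19.7 and 25.7 per mille of UMIs with vehicle and 42.2 and 20.7 per mille with PM, and all 10 listed transcripts were detected. In the class of mature B cells described next they were at 2.87 and 2.68 per mille with vehicle and 5.24 and 3.72 per mille with PM. Their part in the result was not tested.

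In the remaining types no member was called, but values were mostly higher with PM. All 6 members were tested in the Mpo/Ctsg cluster, and each had a positive fold change, from 0.92 for Oas1a to 2.20 for Oasl1, with edgeR adjusted p-values of 0.131 or more (0.479% of genes called higher). Neutrophil transcripts in this cluster were at 14.1 and 15.7 per mille of UMIs with vehicle and 35.6 and 18.5 per mille with PM, and their part in these values was not tested. In HSPC the 5 tested members ran from 0.53 (Oasl2) to 1.13 (Oas2), where 0.132% of genes were called higher. In DC they ran from 1.11 (Oas2) to 1.24 (Oas1a), with 0.298% of genes called higher. CAR cells differed, since Oas3 had 107 and 34.0 CPM with vehicle and 55.8 and 83.7 CPM with PM, so the groups overlapped (0.07 ± 0.54, where 0.0313% of genes were called higher). In eosinophil and basophil progenitors, where 0.0739% of genes were called higher, Oasl2 had 14.6 and 1.56 CPM with vehicle and 33.8 and 25.4 CPM with PM (1.78 ± 0.52, edgeR adjusted p = 0.299). Whether the effect of PM differed between types was tested as an interaction with the mouse as a block, each type against mono&prog cells. None of 78 pairs was called by edgeR, and 0.686% of all gene and type pairs were called. The lowest edgeR adjusted p was 0.0654, for Oas2 in erythroid cells, whose log2 fold change was 1.67 above that of mono&prog cells.

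Because a broad type sums classes with different levels, the comparison was repeated in 15 finer classes. Of 90 pairs of a member and a class, 41 were tested in 9 classes, 39 with a positive fold change and 35 with both PM mice above both vehicle mice (25.8% of all tested pairs). Of the 41, 14 were called higher, against 2.08% of all tested pairs in these classes, and none lower (0.988% of all). These pairs share the same mice as well. Clusters without a clear name stayed outside these classes, in shares that differed between the groups: 10.2% and 11.8% of mono&prog cells under vehicle but 40.3% and 31.4% under PM, 17.5% and 14% of neutrophils but 2.52% and 2.64%, and 17.8% and 17.2% of B cells but 28.9% and 29.5%. Each class therefore holds a different part of its type in each group, and the tests were repeated with every finer cluster named on any margin over the next best name, an alternative chosen after the data were seen.

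Neutrophils were divided into cycling precursors, immature cells with secondary granule transcripts and mature cells. The level of the family differed along this series, from 30.8 and 18.2 CPM in cycling through 156 and 91.6 CPM in immature to 618 and 351 CPM in mature cells of the vehicle mice. In the PM mice the corresponding levels were 73.2 and 66.2 CPM, 267 and 282 CPM, and 626 and 610 CPM.

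**Figure D3:**
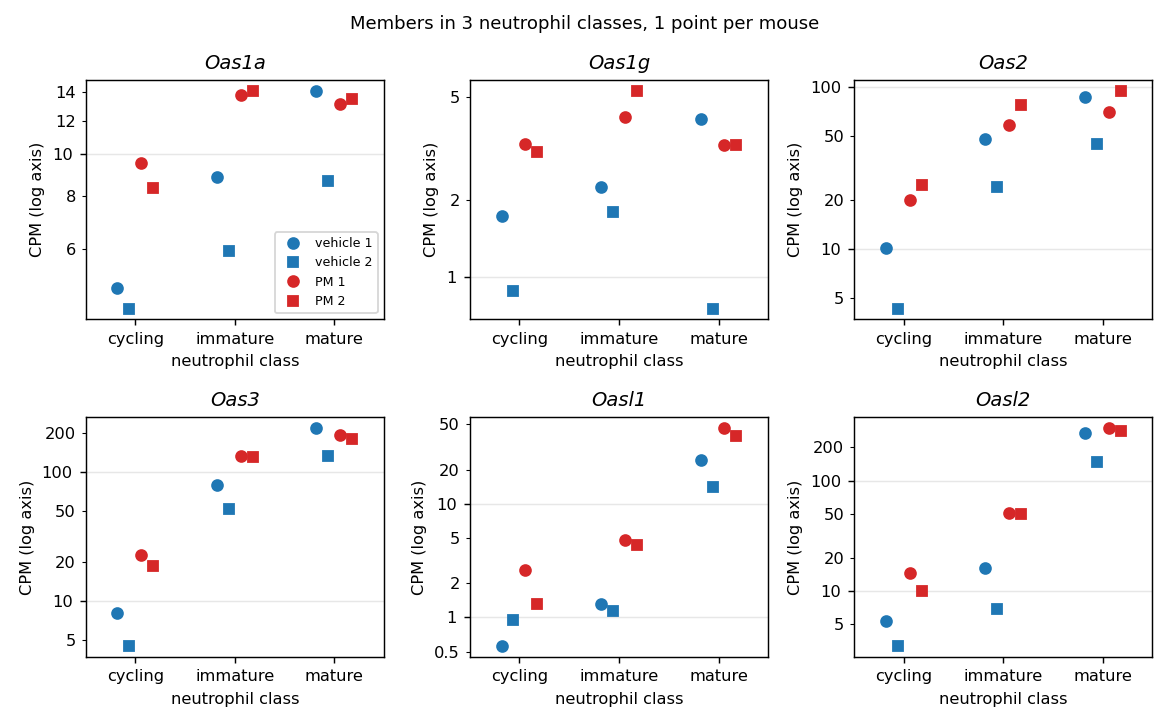
CPM (y, log axis) of each member in the cycling, immature and mature neutrophil classes (x), with 1 point per mouse, vehicle in blue and PM in red. In the immature class both PM points lie above both vehicle points for each member, such as Oas3 at 135 and 130 CPM against 79.3 and 51.6 CPM, whereas in the mature class the Oas3 points of PM (193 and 180 CPM) fall between those of vehicle (220 and 135 CPM).

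In immature neutrophils 4 members rose, where 5.98% of genes were called higher. Oasl1 had 1.31 and 1.13 CPM with vehicle and 4.80 and 4.36 CPM with PM (1.79 ± 0.31, edgeR adjusted p = 0.00597). Oas3 had 79.3 and 51.6 CPM with vehicle and 135 and 130 CPM with PM (0.90 ± 0.19, edgeR adjusted p = 0.0244). Both calls held in all 6 alternative settings. Oas1g (1.10 ± 0.28, edgeR adjusted p = 0.0342) was lost without vehicle 1 (0.0602), without vehicle 2 (0.115), without PM 2 (0.0882) and with DESeq2 (0.149). Oas1a (0.79 ± 0.20, edgeR adjusted p = 0.0375) was lost without vehicle 2 (0.152) and with DESeq2 (0.0843). Oasl2 had the largest fold, from 16.4 and 6.89 CPM with vehicle to 51.0 and 49.5 CPM with PM (1.98 ± 0.39), but an edgeR adjusted p of 0.0573, and it was called by DESeq2 (adjusted p = 0.0183), with the replicate block, without vehicle 1 and without vehicle 2. Without vehicle 1, Oas2 was called too. Between the immature and mature cells lay a cluster in neither class, led by Stfa3 and Mmp8, which held 1072 and 548 neutrophils under vehicle but 110 and 118 under PM. Its family level was 313 and 188 CPM with vehicle and 421 and 365 CPM with PM.

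Cycling neutrophil precursors had low levels and 3 members that rose, where 2.45% of genes were called higher. Oas3 had 8.13 and 4.49 CPM with vehicle and 22.9 and 18.6 CPM with PM (1.59 ± 0.27, edgeR adjusted p = 0.0322). Oasl2 had 5.37 and 3.2 CPM with vehicle and 14.6 and 10.1 CPM with PM (1.41 ± 0.29, edgeR adjusted p = 0.0458). Oas1a differed by 0.85 ± 0.20 (edgeR adjusted p = 0.0385). Without PM 1 none of these 3 was called, with edgeR adjusted p-values of 0.117 (Oas3), 0.126 (Oasl2) and 0.248 (Oas1a), and Oas1a was also uncalled by DESeq2 (0.0996) and with the replicate block (0.0525). Oas2 had a log2 fold change of 1.48 ± 0.38 (edgeR adjusted p = 0.142) and was called without vehicle 1 (2.27) and without vehicle 2 (1.04). Oasl1 was called without vehicle 2 (1.73) and without PM 2 (1.78), and Oas1g without vehicle 1 (1.73) and without PM 2 (1.25).

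In mature neutrophils 1 member, Oasl1, rose, from 24.4 and 14.1 CPM with vehicle to 46.6 and 39.7 CPM with PM (1.11 ± 0.27, edgeR adjusted p = 0.0433), where 6.31% of genes were called higher. This call was lost without PM 1 (0.191) and without PM 2 (0.101). Oas3 (0.05 ± 0.25), Oas2 (0.28 ± 0.36), Oas1a (0.16 ± 0.25) and Oas1g (0.20 ± 0.58) had overlapping groups. Oasl2 had 267 and 148 CPM with vehicle and 299 and 278 CPM with PM (0.45 ± 0.29), which did not overlap. Without vehicle 1, the log2 fold changes of Oasl2 (0.99), Oas2 (0.92) and Oas1g (2.11) were larger. Without vehicle 2, those of Oas2 (-0.16), Oas3 (-0.31), Oas1a (-0.16) and Oas1g (-0.42) were below 0. Different clusters held these mature cells under vehicle and PM. The cluster led by Il1b and Stfa2l1 held 248 and 480 cells under vehicle but 1448 and 1149 under PM. The cluster led by Cstdc4 and Wfdc17 had 1208 and 339 cells with vehicle and 46 and 154 with PM. With the Stfa3/Mmp8 cluster counted as mature, Oasl1 was again the only member called there (1.69 ± 0.26, edgeR adjusted p = 0.0108, where 8.19% of genes were called higher). Family levels of the Il1b/Stfa2l1 and Cstdc4/Wfdc17 clusters stood at 781 and 419 CPM with vehicle and 878 and 900 CPM with PM in the first, and at 749 and 435 CPM and 790 and 677 CPM in the second.

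The difference between neutrophil classes was itself tested, with the mouse as a block, a comparison added after the values had been seen. The effect of PM on Oas3 was larger in cycling than in mature neutrophils by 1.56 ± 0.14 on the log2 scale (edgeR adjusted p = 3.75e-08), and in immature than in mature by 0.85 ± 0.11 (1.45e-05). For Oasl2 these differences were 1.01 ± 0.18 (5.01e-04) and 1.57 ± 0.15 (2.98e-07). For Oas2 they were 1.25 ± 0.14 (1.05e-06) and 0.52 ± 0.12 (0.00819), although Oas2 itself was called in neither class. Of all genes, 9.54% differed in the first contrast and 6.19% in the second. None of these differences was called when the mouse was not a block (edgeR adjusted p from 0.164 to 0.829). Without vehicle 1, the Oasl2 difference for cycling cells was not called (0.71, edgeR adjusted p = 0.0806), and neither was the Oas2 difference for immature cells without vehicle 1 or without PM 1. With the Stfa3/Mmp8 cluster counted as mature, the Oasl2 difference for cycling cells (0.52, edgeR adjusted p = 0.0601) and the Oas2 difference for immature cells (0.37, 0.0781) were not called, and the other 4 were.

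Cycling mono&prog cells had 4 members that rose, where 1.41% of genes were called higher. Oasl2 had 8.97 and 6.80 CPM with vehicle and 29.4 and 20.3 CPM with PM (1.65 ± 0.24, edgeR adjusted p = 0.00121), and this call held in all 6 alternative settings. Oas3 had 10.3 and 6.47 CPM with vehicle and 21.7 and 17.1 CPM with PM (1.19 ± 0.24, edgeR adjusted p = 0.0153). Oas1a had 8.45 and 6.14 CPM with vehicle and 16.0 and 14.3 CPM with PM (1.03 ± 0.24, edgeR adjusted p = 0.0324). Oas1g rose as well, from below 1 CPM in both vehicle mice (0.78 and 0.498) to 3.49 and 3.51 CPM (2.37 ± 0.53, edgeR adjusted p = 0.0273). Without PM 1 the last 3 were not called, with edgeR adjusted p-values of 0.254, 0.366 and 0.332, and DESeq2 called none of them. Without PM 2, Oas1g was also uncalled (0.0598).

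The result in classical monocytes depended on which cells were counted. The named class had 481 and 268 cells under vehicle and 221 and 99 under PM. A cluster of 427 cells was closest to classical monocytes by its markers but stayed unnamed. Apart from hemoglobin genes it was led by Apoe, Slfn5, Cxcl10 and Rtp4, and it held 2 and 10 cells under vehicle but 297 and 118 under PM. Its Oasl2 level in the PM mice was 233 and 187 CPM. In the named class no member was called, where 2.25% of genes were called higher. Oasl2 had 75.7 and 58.3 CPM there with vehicle and 118 and 76.2 CPM with PM (0.53 ± 0.22, edgeR adjusted p = 0.271). With the unnamed cluster included, 3 members were called in classical monocytes, where 2.09% of genes were called higher. Oasl2 then had 76.3 and 62.8 CPM with vehicle and 178 and 134 CPM with PM (1.16 ± 0.18, edgeR adjusted p = 0.0038), and Oasl1 (1.73 ± 0.30, edgeR adjusted p = 0.00826) and Oas2 (0.96 ± 0.19, edgeR adjusted p = 0.0171) rose as well.

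The effect on Oasl2 was larger in cycling cells than in the named classical class by 1.12 ± 0.25 (edgeR adjusted p = 0.00232), a contrast in which 1.51% of genes differed. With the unnamed cluster included, this difference was 0.49 ± 0.22 and not called (edgeR adjusted p = 0.556). It was also not called without vehicle 1, without PM 1 and without the block. Monocytes bearing MHC class II genes had the highest Oasl2 of the 4 monocyte classes, 148 and 99.5 CPM with vehicle and 222 and 247 CPM with PM (0.90 ± 0.24, edgeR adjusted p = 0.139), where 0.229% of genes were called higher.

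In the lymphoid and dendritic lineages, Oasl2 rose in mature B cells, from 3.74 and 6.01 CPM with vehicle to 22.1 and 36.5 CPM with PM. The log2 fold change was 2.33 ± 0.57 (edgeR adjusted p = 0.0155), and 0.895% of genes were called higher. Oasl1 had 3.74 and 9.02 CPM with vehicle and 27.7 and 25.0 CPM with PM in these cells (1.80 ± 0.52, edgeR adjusted p = 0.0551). Its vehicle sums held 1 and 6 UMIs. Without vehicle 2 the Oasl2 call was lost (0.167), and likewise without PM 2 (0.3). Naming on any margin added a cluster of 673 cells to the mature B cells, and both Oasl2 (1.99 ± 0.43, edgeR adjusted p = 0.00344) and Oasl1 (1.72 ± 0.36, edgeR adjusted p = 0.0023) were then called, where 1.15% of genes were called higher, whereas Oas2 was not (1.56 ± 0.46, edgeR adjusted p = 0.059). Plasmacytoid DC, cells specialised in interferon production, had 19.3 and 31.5 CPM of Oasl2 with vehicle and 65.9 and 64.4 CPM with PM (1.24 ± 0.33, edgeR adjusted p = 0.0421). There 1.08% of genes were called higher, and the call was lost on leaving out any 1 of the 4 mice (edgeR adjusted p from 0.0684 to 0.298) and with DESeq2. In T cells without NK cells, Oas3 was the only member with enough UMIs for a test. It had 58.5 and 16.1 CPM with vehicle and 21.3 and 31.9 CPM with PM, which overlapped (-0.33 ± 0.43, where 0.573% of genes were called higher).

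The share of cells with a family UMI was also compared. After thinning to 2000 UMIs per cell, it was 7.98% and 5.94% in B cells under vehicle and 16.2% and 15.1% under PM, so the groups did not overlap. Without thinning these shares were 8.30%, 7.11%, 18.7% and 20.6%. Thinning left out 78, 227, 557 and 126 B cells with fewer UMIs. In mono&prog cells thinning gave 26.8% and 19.1% under vehicle and 36.5% and 31.9% under PM (60.0%, 47.0%, 74.2% and 72.1% unthinned). Neutrophils had 37.8% and 24.0% with vehicle and 38.9% and 40.4% with PM (62.3%, 43.1%, 62.7% and 63.7% unthinned). Plasma cells were among the types with the lowest thinned shares, at 3.33% and 1.23% with vehicle and 4.52% and 2.56% with PM. Under vehicle the Mpo/Ctsg cluster (3.65% and 1.63%) and eosinophil and basophil progenitors (3.41% and 2.63%) overlapped with them, so the lowest was not resolved. Median depth before thinning was 2176 to 2577 UMIs in B cells and 18885 to 24728 UMIs in plasma cells.

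Pde12, which degrades oligoadenylates, and Abce1, a ribosome recycling factor, were called in no type. Pde12 in neutrophils had 24.5 and 19.8 CPM with vehicle and 16.6 and 20 CPM with PM (-0.44 ± 0.14, edgeR adjusted p = 0.0935). Abce1 ran from -0.37 in macrophages to 0.14 in B cells.

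Sensors of double-stranded RNA were called higher in 4 of 96 pairs. For this list and those below, the share called higher over all genes and types was 0.926%. By type it was 4.45% in neutrophils, 2.17% in B cells and 1.26% in mono&prog cells. Eif2ak2, which encodes the kinase PKR, rose in mono&prog cells (39.4 and 35.2 CPM against 66.1 and 60.7 CPM, 0.74 ± 0.12, edgeR adjusted p = 0.0167) and in neutrophils (14.6 and 15 CPM against 22.9 and 24.5 CPM, 0.53 ± 0.10, edgeR adjusted p = 0.0238). Ifih1, the sensor MDA5, rose in B cells (0 and 1.75 CPM against 10.3 and 5.52 CPM, edgeR adjusted p = 0.0321). Dhx58, the sensor LGP2, rose in the Mpo/Ctsg cluster (1.22 ± 0.23, edgeR adjusted p = 0.0389).

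Of the type I interferon receptor and signalling genes, 5 of 117 pairs were called higher, and all 5 were Irf7, the transcription factor whose translation Oasl1 restrains. Irf7 in B cells had 12.6 and 5.84 CPM with vehicle and 25.4 and 20.6 CPM with PM (1.67 ± 0.35, edgeR adjusted p = 0.00999). It also rose in erythroid cells (1.88 ± 0.24), DC (1.17 ± 0.15), mono&prog cells (0.95 ± 0.18) and neutrophils (0.80 ± 0.14). Stat2 and Irf9, transcription factors of the interferon response, were called in none. In neutrophils Irf9 had 62.5 and 50.5 CPM against 80.6 and 88.4 CPM (0.42 ± 0.13, edgeR adjusted p = 0.0819).

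**Figure D4:**
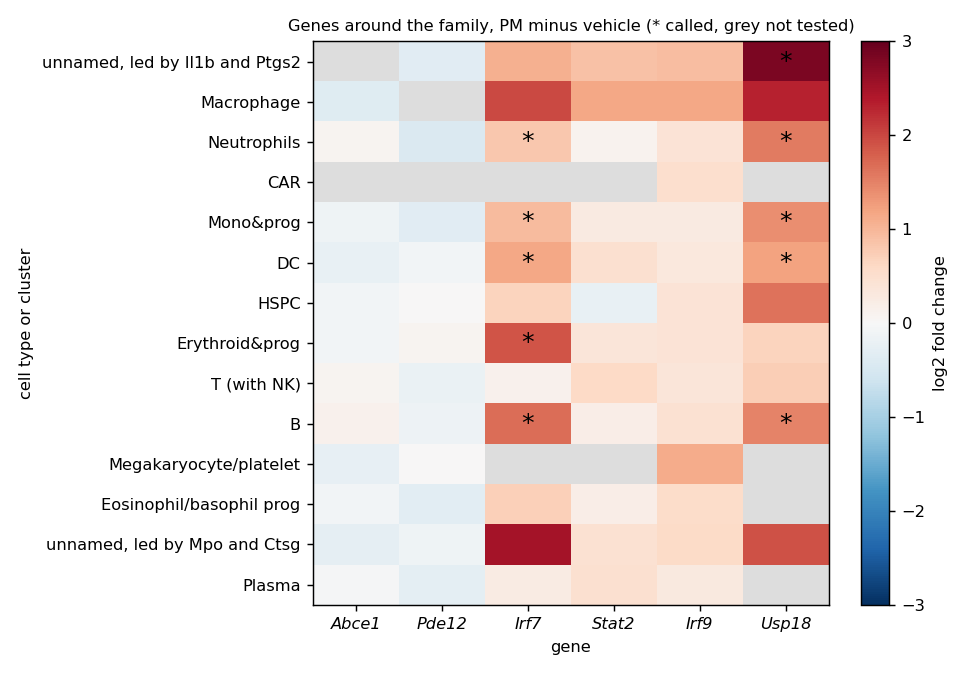
Log2 fold change of PM over vehicle (colour) for 6 genes around the family (x) in each cell type or cluster (y); stars mark calls by edgeR's quasi-likelihood test and grey cells were not tested. Stars stand under Irf7 in 5 types and Usp18 in 5 types, and under none of Abce1, Pde12, Stat2 and Irf9.

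Genes that limit the interferon response were called higher in 7 of 93 pairs, and 5 of these were Usp18, which removes Isg15 from proteins and damps receptor signalling. Usp18 in neutrophils had 4.76 and 3.65 CPM with vehicle and 14.7 and 13.1 CPM with PM (1.56 ± 0.17, edgeR adjusted p = 0.00175). It rose most in the Il1b/Ptgs2 cluster (29.8 and 9.67 CPM against 152 and 91.6 CPM, 2.82 ± 0.46, edgeR adjusted p = 0.0103), and also in B cells, DC and mono&prog cells. Ube2l6, the conjugating enzyme for Isg15, gave the other 2 calls, in DC (1.41 ± 0.22) and mono&prog cells (0.93 ± 0.14).

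Of the other Oas genes of the locus, 1 of 7 pairs was called. Oas1c in neutrophils had 4.34 and 3.89 CPM with vehicle and 7.33 and 7.26 CPM with PM (0.67 ± 0.15, edgeR adjusted p = 0.0385). Oas1d, Oas1f and Oas1h had no UMI in any library. Of the 12 interferon genes listed, 1 pair was tested and none called: Ifnb1 and Ifnk each had 1 UMI in all cells, the listed Ifna genes had 0, and Ifng gave 115 and 58 UMIs under vehicle but 108 and 114 under PM. Over the broader list of 125 interferon-responsive genes without the members, 97 of 1228 pairs were called higher and 1 lower, in 10 types. Of all tested pairs, 0.926% were called higher and 0.42% lower.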

How the data were processed

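Per the file headers and the study's methods, the authors aligned and counted 10x 3′ (V3) libraries with Cell Ranger 6.0.1; the methods name GRCm38 and the labels' processing notes STAR and GRCm39. The deposited files hold raw UMI counts per gene and cell barcode, 1 matrix per mouse, with no normalization and no coordinates; symbols were taken from the files and positions from GENCODE M21 (GRCm38). Depth per library bounds counting error only.

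Cells of 300 genes or more and no more than 20% mitochondrial UMIs were kept. Clusters were made with scanpy 1.11.5 from 2500 variable genes without a list of 131 interferon-responsive genes (126 in the files), 30 principal components, 15 neighbours and Leiden resolution 1. Names came from fixed marker lists; how strict naming had to be was set with the clusters in view. Called doublets (1.52 to 5.51% per library) were kept, and removed in an alternative. UMIs were summed per mouse and type and compared by the quasi-likelihood test of edgeR 4.0.16 in R 4.3.3, with TMM scaling, the filterByExpr minimum, robust fitting and treatment alone in the model; DESeq2 1.42.0 was an alternative. On simulated counts for B cells (10517 genes), 61.5% of 2-fold and 96.9% of 4-fold changes were recovered, with 17 false calls among unchanged genes. For mono&prog cells (11592 genes) these values were 75.8%, 94.9% and 19. For neutrophils (12680 genes) they were 79.8%, 96.8% and 20. For the difference between immature and mature neutrophils (11913 genes) they were 28.3%, 68.7% and 9.

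The members were tested in every type with enough UMIs, and not every tested pair of a member and a type is given here. List genes are named where called (at most 3 per list and type), with Abce1, Pde12, Irf7, Stat2 and Irf9 always. The 3 genes most like each member are named too. The members and lists were chosen with earlier results of these data known. Differences between finer classes, finer naming on any margin and the crossed replicate block were added after the data were seen. Protein sequences and a promoter for Oas2 were not used here, and some genes of the fixed lists are not reported here.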

Additional observations from a re-analysis of the deposited data

Results flagged for a closer look

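The effect of PM on 3 members differed between neutrophil classes, and on 1 member between monocyte classes. This came from a test of the difference with the mouse as a block (edgeR's quasi-likelihood test, 7 of 30 pairs called). Against mature neutrophils, the log2 fold change in cycling neutrophils was larger by 1.56 for Oas3, by 1.25 for Oas2 and by 1.01 for Oasl2. In immature neutrophils it was larger by 1.57 for Oasl2, by 0.85 for Oas3 and by 0.52 for Oas2. Of all genes, 9.54% differed in the cycling and 6.19% in the immature neutrophil contrast, and 1.51% in the monocyte contrast that follows. With the Stfa3/Mmp8 cluster counted as mature, the Oasl2 difference for cycling neutrophils (0.52) and the Oas2 difference for immature neutrophils (0.37) were not called. In cycling mono&prog cells the log2 fold change of Oasl2 was 1.12 above that in the cells named classical monocytes, which left out a cluster of 427 cells closest to them and mostly from PM mice; with that cluster included the difference was 0.49 and not called (edgeR adjusted p = 0.556). In mature neutrophils the vehicle mice lay apart (Oas3 at 220 and 135 CPM, Oasl2 at 267 and 148 CPM), and the part of this in the differences was not tested. None of the 7 differences was called when the mouse was not a block (edgeR adjusted p from 0.164 to 0.829).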

How the results depend on the processing

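Of 707 refits of a member's log2 fold change in a type, 693 kept the direction and 14 reversed it. The counts of calls below stand without the share of all genes called in the same setting. The 5 pairs called higher became 12 with the library total alone, 27 without a filter on low counts, 21 with the replicate block, and 3 to 25 on leaving out 1 mouse (3 without PM 1, 25 without vehicle 1); no setting called a member lower. Members called in B cells ranged from 0 to 3 on leaving out a mouse (0 without vehicle 2). Pathway genes, 17 pairs, became 28 with the library total, 36 without a filter, 11 with DESeq2 and 8 to 29 on leaving out a mouse. In finer classes, 14 pairs became 7 with DESeq2, 18 with finer clusters named on any margin and 6 to 22 on leaving out a mouse. Differences between finer classes, 7 pairs, became 0 without the block for the mouse, 4 with finer clusters named on any margin and 4 to 8 on leaving out a mouse. PM minus vehicle in the share of cells with a family UMI was 8.70 points in B cells (11.9 without thinning, 6.06 at 1000 UMIs) and 11.3 points in mono&prog cells (19.7 without thinning). Of the 18 genes most like a member, 7 were shared with the list by Spearman's rho.

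The replicate numbers did not pair the mice: deviations of same-numbered mice correlated at a median of -0.02 over types. The crossed block, run where this was below -0.1, called 1 member in neutrophils and 1 in erythroid cells, against 0 in each. Over all genes and both directions, it called 1344 in neutrophils and 227 in erythroid cells. With treatment alone in the model, 659 of 12885 genes were called in neutrophils and 11 of 10527 in erythroid cells.

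On leaving out 1 mouse in turn, the reversed log2 fold changes ranged over -0.13 to 0.49 for Oasl2 and -0.52 to 1.16 for Oas3 in CAR cells (-0.20 without PM 2), -0.093 to 2.06 for Oasl2 in erythroid cells, -1.83 to 1.56 for Oas1a in macrophages (0.69 without PM 2), -0.13 to 0.76 for Oas3 in neutrophils and -0.0040 to 0.37 for Oasl1 in T cells. In mature neutrophils they were -0.16 to 0.92 for Oas2, -0.31 to 0.50 for Oas3 (-0.052 without PM 1), -0.42 to 2.11 for Oas1g and -0.16 to 0.64 for Oas1a. For Oas3 they were -0.38 to 0.43 in MHC class II-bearing monocytes (0.038 without PM 2) and -1.07 to 0.71 in T cells without NK cells. In CAR cells Oas3 was at -0.0082 with the library total, -0.10 with 500 genes and 10% mitochondrial UMIs and -0.099 at Leiden resolution 1.5, and Oasl2 at -0.12 with the stricter cell filter. With called doublets removed, Oas3 was at -0.00067 in eosinophil and basophil progenitors and Oasl1 at -0.19 in T cells. The cause was not tested.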
